A study of Drosophila melanogaster with 36 samples.

Results

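The disc by domain interaction asks, gene by gene, whether the difference between haltere and wing cells was the same in distal as in proximal cells. It is the log2 difference haltere nub minus wing nub, less the log2 difference haltere tsh minus wing tsh, so that a positive value means a gene stood higher in haltere against wing in distal cells than in proximal cells. Of 11198 genes tested, 1502 were taken as interaction genes. These were called at an adjusted p under 0.05, reached a mean of 5 CPM (counts scaled to a common library total) in at least 1 of the 4 groups, and had wing tsh replicates within 2-fold of each other. The interaction used 8 RNA-seq libraries. The series has 36 samples, and its 17 samples of ATAC-seq and 11 of ChIP-seq were left aside here.

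The 4 groups were haltere nub, haltere tsh, wing nub and wing tsh, with 2 libraries each. All came from imaginal discs of wandering L3 larvae of Drosophila melanogaster, and all carried a yw background and uas-kash.GFP. The nub groups had the genotype yw;nub.gal4;uas-kash.GFP and are titled WT, and the tsh groups had yw;tsh.gal4;uas-kash.GFP. In the distal (nub) groups the GFP therefore marked cells in which the nub driver was active, and in the proximal (tsh) groups cells in which the tsh driver was active. Domain and driver line cannot be told apart. Nothing in the labels ties the 2 replicates of a group to separate larvae, and p-values therefore reflect library to library spread that may be technical.

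The wing and haltere discs are serially homologous epithelial sacs. Distal cells of each disc form the appendage itself, the wing blade or the capitellum of the haltere, and proximal cells form the body wall and part of the hinge. The Hox protein Ubx is made in the haltere disc and sets its fate by changing the expression of genes that the wing disc also uses. A gene with an interaction is one for which the haltere and wing discs differ by unequal amounts along this proximal to distal axis.

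The defining genes of each domain followed the labels. For the POU factor gene nub, the distal libraries held 1036 and 1041 CPM (haltere) and 1651 and 1587 CPM (wing). The proximal ones held 10.5 and 10.3 CPM (haltere) and 38.7 and 36.1 CPM (wing). The zinc finger gene tsh stood at 898 and 839 CPM in haltere tsh, 690 and 764 in wing tsh, 29.5 and 23.4 in haltere nub and 19.0 and 11.9 in wing nub libraries. Library totals were 96525031 and 92342738 counts in haltere nub and between 15110163 and 17705451 in the other 6 libraries. Wing tsh replicate 1 stood apart, with 5186 genes between 1 and 5 CPM against 1822 to 2312 in the other 7 libraries. The share of tested genes more than 2-fold apart between replicates was 17.1% in wing tsh, 10.3% in haltere tsh, 8.54% in wing nub and 3.31% in haltere nub. Leaving out 1 library leaves a group with a lone library that is assumed to vary like the other groups.

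The interaction was called for 1727 of the 11198 genes (15.4%), 820 higher (7.32%) and 907 lower (8.1%). These shares are the background for each list count below. Of the 1727 genes, 183 stayed under 5 CPM in every group, of which 179 were higher. Among the 183, 99 stood more than 2-fold higher in wing tsh replicate 1 than in replicate 2. A further 42 had wing tsh replicates more than 2-fold apart, and replicate 1 was the higher in 40 of them. The 1502 that remained were 13.4% of the genes tested, 599 higher (5.35%) and 903 lower (8.06%). An interaction of at least 1 log2 unit was found for 526 of them, 392 higher and 134 lower. The balance of called genes turned to 855 higher and 782 lower with RLE scaling and 1016 and 754 with DESeq2, and that of interaction genes to 384 and 353 without haltere nub replicate 1. Interaction genes were 636 higher and 778 lower with RLE scaling and 620 and 746 with DESeq2. The number of interaction genes was 1547 without wing tsh replicate 1 and 2144 without wing tsh replicate 2. It was 737 and 666 without haltere nub replicate 1 and 2, 680 and 1105 without haltere tsh replicate 1 and 2, and 766 and 1197 without wing nub replicate 1 and 2.

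**Figure D1:**
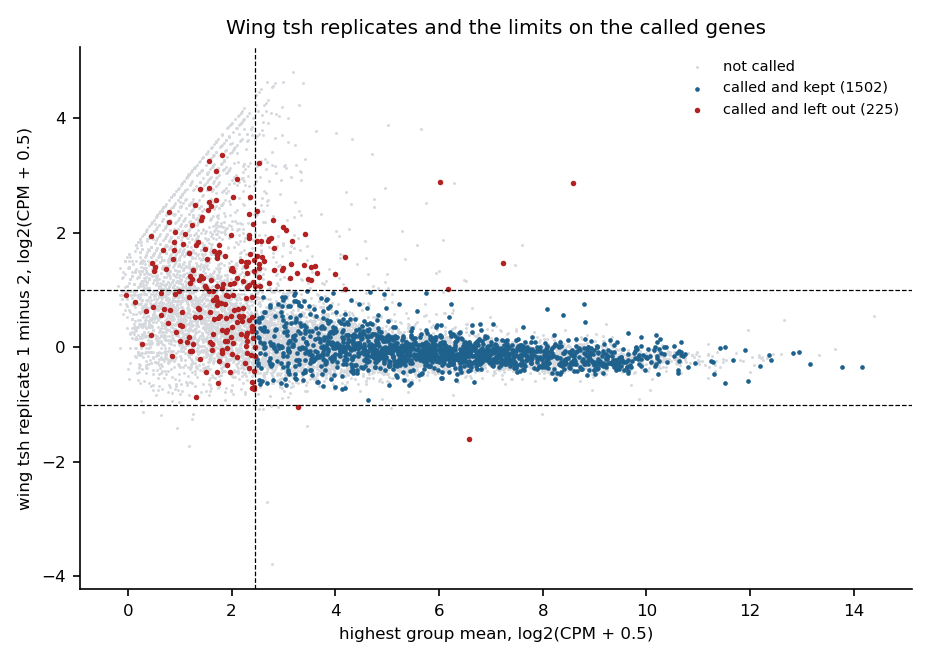
Difference between the wing tsh replicates (log2 of CPM + 0.5, replicate 1 minus 2, vertical axis) against the highest group mean (log2 of CPM + 0.5, horizontal axis) for the genes tested. Dashed lines mark 5 CPM and a 2-fold difference; the 1502 genes kept lie right of the vertical line and between the horizontal lines, and most genes left out lie above them or to the left.

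At the edges of the rule, the highest group mean was 5.007 CPM for Ag5r, which was kept, and 4.971 CPM for CG5280, which was not. The wing tsh replicates were 1.98-fold apart for Kif3C, kept, and 2.03-fold apart for CG15212, left out. The adjusted p was 0.04987 for TP53INP, kept, and 0.05045 for oaf, left out.

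Most interaction genes had a disc difference called in nub cells. The groups differed in depth and in replicate spread, so counts of calls in nub and in tsh cells are not a like measure. Over all genes tested, haltere and wing differed for 2614 genes in nub cells (23.3%) and for 365 in tsh cells (3.26%). Distal and proximal cells differed for 2790 genes in the haltere disc (24.9%) and for 1549 in the wing disc (13.8%). Of the 1502 interaction genes, 1125 (74.9%) were called between discs in nub cells alone, 86 (5.73%) in tsh cells alone, 46 in both with the same sign and 166 in neither. A further 79 (5.26%) were called in both with opposite signs, 55 of them higher in haltere than in wing nub cells and 24 lower. The disc effect was larger in size in nub than in tsh cells for 1229 genes (81.8%). These counts share the values that selected the genes and are given as a description.

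**Figure D2:**
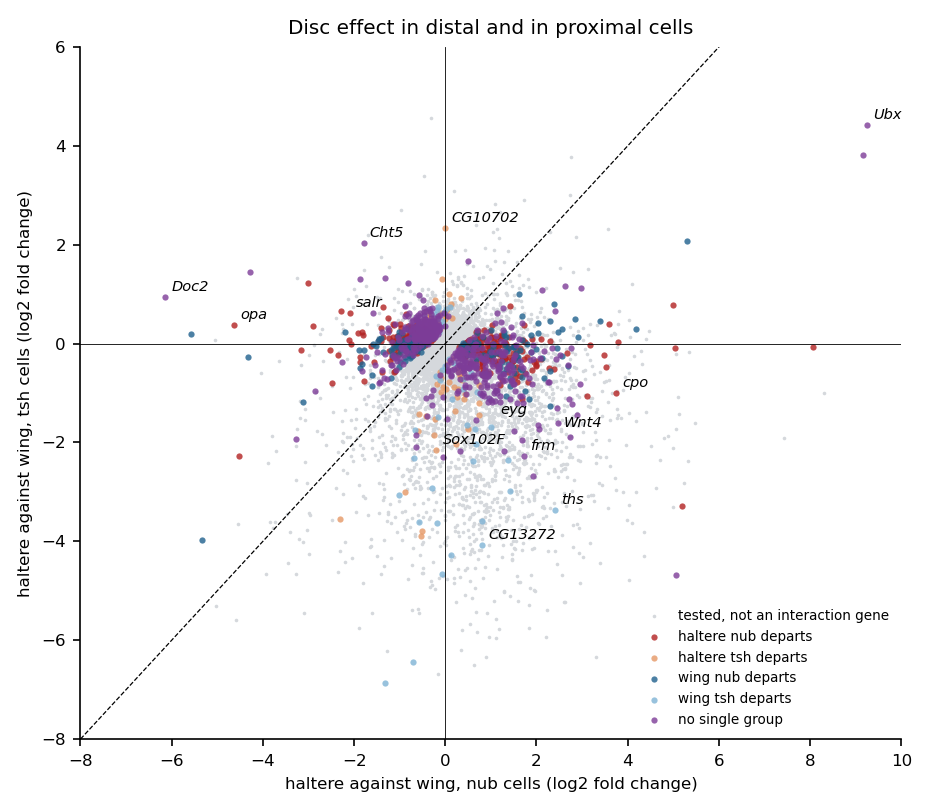
Log2 fold change of haltere against wing in nub cells (horizontal) and in tsh cells (vertical) for each gene tested, with the 1502 interaction genes coloured by the group that departs and the dashed line marking equal effects. Interaction genes spread further along the horizontal than along the vertical axis; Doc2 and Cht5 lie in the upper left quadrant, lower in haltere in distal and higher in proximal cells, and eyg, Wnt4 and frm in the lower right. Genes with no count in a group have no fold and are not drawn.

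Each interaction gene was sorted by the group whose mean log2(CPM + 0.5) stood apart. A group departed alone where its distance to the nearest other group was larger than the range of the other 3. By this description 931 genes (62.0%) had a single departing group and 571 (38.0%) had none. Haltere nub departed for 584 genes (196 high, 388 low), wing nub for 222 (140 high, 82 low), haltere tsh for 72 (35 high, 37 low) and wing tsh for 53 (35 high, 18 low). The nub groups thus held 806 of the 1502 (53.7%) and the tsh groups 125 (8.32%). The same sorting of all genes tested gave 33.5% and 19.4%. Those genes were not held to the limits on CPM and wing tsh agreement, so these shares are not a like comparison. How much of the contrast comes from the limits was not tested. Of the 571 without a single departing group, 491 had estimated disc effects of opposite sign in the domains and 80 of the same sign. These were 32.7% and 5.33% of the 1502. Among all genes tested, not held to those limits, the shares were 26.7% and 20.4%.

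**Figure D3:**
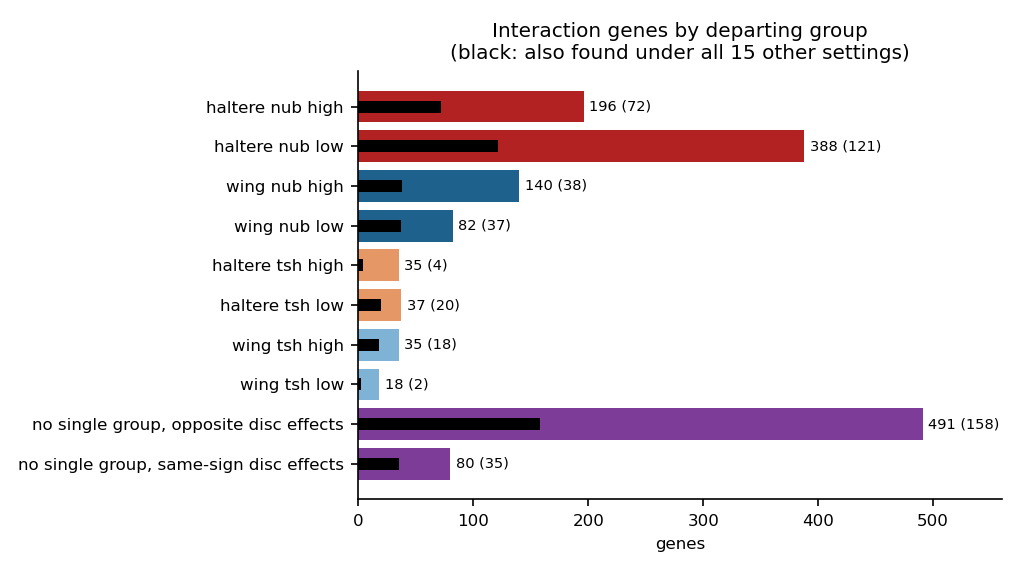
Number of interaction genes (horizontal axis) by departing group, with the number that remained interaction genes under all 15 other settings as a black bar and in brackets. Haltere nub low is the longest bar among single groups with 388 genes, of which 121 remained; haltere tsh high (4 of 35) and wing tsh low (2 of 18) kept the fewest.

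Haltere distal cells were high, alone, for 196 genes, with a median interaction of 1.09 in size. The RNA-binding protein gene cpo, on 3R at 17919832 to 18018892 and known from peripheral neurons, stood at 233 and 210 CPM in haltere nub, 24.5 and 22.8 in haltere tsh, 17.4 and 15.7 in wing nub and 50.1 and 44.2 in wing tsh libraries. Both haltere nub libraries lay above all others, and the wing order was the reverse of the haltere order, with tsh above nub. The interaction of cpo was 4.74 ± 0.15 (log2, SE; adjusted p = 9.29e-09), made of 3.74 in nub cells and -1.0 in tsh cells. The transmembrane protein gene tinc stood at 1264 and 1319 CPM in haltere nub, 209 and 197 in haltere tsh, 378 and 353 in wing nub and 335 and 362 in wing tsh libraries, with an interaction of 2.60 ± 0.12 (adjusted p = 2.32e-07). The adhesion protein gene rst stood at 694 and 693 CPM in haltere nub, 128 and 121 in haltere tsh, 233 and 233 in wing nub and 219 and 206 in wing tsh libraries, with an interaction of 2.35 ± 0.11 (adjusted p = 2.76e-07). For tinc and rst the haltere tsh libraries were the lowest of the 8, so that haltere cells held both the highest and the lowest level. At lower levels, the cuticle protein gene Ccp84Ab stood at 21.8 and 26.7 CPM in haltere nub and at 4.06 CPM or less in every other library, with an interaction of 8.49 ± 0.74 (adjusted p = 0.000125). All 4 genes were called under all 15 other settings.

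Genes of the Notch pathway, through which neighbouring cells hold each other back from a neural fate, moved with this group. Of 23 tested, 13 were called higher and 2 lower in the interaction, and the list median was 1.17 against 0.01 over all genes tested. Of the 15, 9 were high in haltere nub alone. The Enhancer of split gene E(spl)mgamma-HLH, a repressor that Notch switches on, stood at 42.4 and 45.2 CPM in haltere nub and between 4.81 and 8.24 CPM in the other 6 libraries (interaction 3.20 ± 0.27, adjusted p = 2.38e-05). Other genes of the same complex on 3R were also high in haltere nub alone. The interaction was 1.81 ± 0.19 for E(spl)m4-BFM, 1.98 ± 0.20 for E(spl)m7-HLH and 1.68 ± 0.20 for E(spl)mdelta-HLH. E(spl)m6-BFM, of the complex too, was instead high in wing tsh alone. It stood at 5.96 and 9.68 CPM in wing tsh and 0.418 and 0.282 in haltere nub libraries (interaction 3.04 ± 0.75, adjusted p = 0.021). The call of E(spl)m6-BFM was lost in 5 of the 15 other settings, among them haltere nub thinned and limma. Its values lay between 2.48 and 3.44 over all settings. Brd, of the Bearded family that limits Notch ligand activity, stood at 84.1 and 103 CPM in haltere nub, 18.6 and 13.6 in haltere tsh, 27.8 and 30.3 in wing nub and 34.9 and 34.4 in wing tsh libraries (2.80 ± 0.21, adjusted p = 9.3e-06). The ligand gene Ser and the Notch inhibitor gene numb were the members called lower, at -0.62 ± 0.13 and -0.61 ± 0.13. Neither was called without haltere nub replicate 2 or haltere tsh replicate 1, nor Ser without wing nub replicate 1, and over all settings Ser lay between -0.83 and -0.53 and numb between -0.84 and -0.51. Between 9 (without haltere tsh replicate 1) and 14 list members were called higher when 1 library was left out.

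Proneural and sensory organ genes showed a like count, 7 higher and 2 lower of 14 tested, with a median of 1.49. The list holds cpo. The neighbouring proneural genes ac and sc, which give cells the competence to become sensory precursors, had interactions of 1.40 ± 0.23 (adjusted p = 0.00308) and 1.26 ± 0.17 (adjusted p = 0.000724). For sc the haltere nub libraries stood at 70.2 and 86.6 CPM and the other 6 between 33.3 and 47.4. The zinc finger gene sens, which acts in the precursors themselves, went the other way: it was high in wing nub alone, at 15.8 and 15.6 CPM, against 5.57 and 6.29 in haltere nub, 2.3 and 2.74 in haltere tsh and 2.95 and 1.75 in wing tsh libraries. Its interaction of -1.51 ± 0.35 (adjusted p = 0.0162) was not called under limma or when either nub library of either disc or haltere tsh replicate 2 was left out, and lay between -1.94 and -1.19 over all settings. The list had 5 members called higher without haltere nub replicate 1 and 5 to 9 over all libraries left out.

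Stress and heat shock genes, which handling of cells can also move, were called higher for 10 and lower for 2 of 20 tested (median 0.97). Of the 11 that met the limits on CPM and wing tsh agreement, 4 were high in haltere nub alone. The list summed to 3770 and 3960 CPM in haltere nub and to between 3940 and 5470 CPM in the other libraries. Hsp68 stood at 67.4 and 67.4 CPM in haltere nub, 7.64 and 16.4 in haltere tsh, 4.28 and 5.53 in wing nub and 10.9 and 12.9 in wing tsh libraries (interaction 3.75 ± 0.45, adjusted p = 0.00206). Hsp70Aa and Hsp70Ab were 2.33 ± 0.32 and 1.58 ± 0.26; counts of these near-identical copies are uncertain. The part of handling in the other haltere nub genes was not tested. The cell death gene hid (-0.57 ± 0.12) and the matrix protease gene Mmp1 (-0.80 ± 0.17) were the members called lower. The call of hid ended without haltere nub or haltere tsh replicate 1, with values between -0.74 and -0.50 over all settings. That of Mmp1 ended without haltere nub or haltere tsh replicate 2 or wing nub replicate 1, with values between -0.97 and -0.64.

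Haltere distal cells were low, alone, for 388 genes, the most of any single group, with a median interaction of 0.68 in size. Between 153 of them (without haltere tsh replicate 1) and 376 were kept when 1 library was left out. The zinc finger gene opa, on 3R at 4852813 to 4869979, stood at 3.95 and 3.58 CPM in haltere nub, 132 and 122 in haltere tsh, 94.4 and 91.4 in wing nub and 90.2 and 106 in wing tsh libraries. It was low in both haltere nub libraries and the other 3 groups lay close together (interaction -5.00 ± 0.15, adjusted p = 8.59e-09). The spalt gene salr, a Dpp target that positions wing veins, stood at 58.2 and 59.8 CPM in haltere nub, 341 and 354 in haltere tsh, 246 and 259 in wing nub and 212 and 243 in wing tsh libraries (-2.71 ± 0.13, adjusted p = 2.17e-07). Its paralogue salm, nearby on 2L, had an interaction of -1.77 ± 0.12 (adjusted p = 5.83e-06). For the spalt genes the tsh effect had the opposite sign, at 0.61 (adjusted p = 0.00189) for salr and 0.52 (adjusted p = 0.00625) for salm.

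The Golgi kinase gene fj, which tunes binding between Fat and Dachsous, stood at 219 and 229 CPM in haltere nub, 594 and 504 in haltere tsh, 1234 and 1342 in wing nub and 600 and 597 in wing tsh libraries (-2.40 ± 0.14, adjusted p = 1.4e-06). In the wing disc fj was higher in distal cells, and in the haltere disc lower. The Iroquois homeodomain gene caup was low in haltere nub at 40.0 and 39.5 CPM, against 145 and 145 in wing nub, 419 and 387 in haltere tsh and 486 and 490 in wing tsh libraries (-1.59 ± 0.11, adjusted p = 5.86e-06). The FGF ligand gene bnl, which guides air sac tracheae, stood between 42.1 and 48.1 CPM in the tsh libraries, at 14.3 and 15.5 in wing nub and at 3.48 and 3.46 in haltere nub libraries (-2.17 ± 0.16, adjusted p = 8.57e-06). These 6 genes were called under all 15 other settings.

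Ribosomal protein genes were many in this group, each with a small interaction. Of 86 cytosolic ribosomal protein genes tested, 54 were called lower and 0 higher with edgeR (62 and 0 with limma, 55 and 0 with DESeq2), with a median of -0.56. Of the 54, 50 were low in haltere nub alone. RpLP2 stood at 470 and 493 CPM in haltere nub, 807 and 815 in haltere tsh, 898 and 941 in wing nub and 666 and 771 in wing tsh libraries (-1.11 ± 0.13, adjusted p = 0.000315). The summed level of the list was 31002 and 31171 CPM in haltere nub and 37684 to 47605 CPM in the other 6 libraries, and the wing tsh replicates lay furthest apart. The count was 12 and 16 without haltere nub replicate 1 and 2, 12 and 29 without haltere tsh replicate 1 and 2, and 23 and 22 without wing nub replicate 1 and 2. It was 53 and 82 without wing tsh replicate 1 and 2. The median stayed between -0.75 and -0.42 in all settings, and no member was called higher in any, nor at an unadjusted p under 0.05 (0 of 86 with edgeR). Of 71 mitochondrial ribosomal protein genes, 5 were called lower and 0 higher with edgeR (median -0.39), a share no larger than the 8.1% called lower over all genes tested. The counts were 3 and 0 with limma or DESeq2, and 15 and 0 at an unadjusted p under 0.05. With 1 library left out, 0 to 8 were called lower. In bulk RNA, fewer cells of a type and less RNA per cell cannot be told apart.

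Cell cycle genes were called lower for 13 and higher for 0 of 26 tested with edgeR (median -0.45), for 12 and 0 with limma and 11 and 0 with DESeq2. At an unadjusted p under 0.05 they numbered 20 lower and 0 higher. Of the 13, 10 had no single departing group and 1 was low in haltere nub alone. The phosphatase gene stg, which drives cells into mitosis, was that gene, at 116 and 127 CPM in haltere nub, 248 and 210 in haltere tsh, 178 and 192 in wing nub and 176 and 192 in wing tsh libraries (-0.92 ± 0.14, adjusted p = 0.00201). The mitotic kinase gene aurB stood at 19.7 and 20.7 CPM in haltere nub, 30 and 28.7 in haltere tsh, 32.0 and 29.7 in wing nub and 23 and 24.7 in wing tsh libraries (-0.91 ± 0.15, adjusted p = 0.00282). For aurB the haltere nub and wing tsh groups lay below the other pair. The count was 6 without haltere nub replicate 1, haltere tsh replicate 1 or wing nub replicate 1, and 8 without haltere nub replicate 2. A list of nucleolar and ribosome assembly genes, chosen after its members' values were seen, had 17 lower and 0 higher of 27 with edgeR (median -0.60), 14 and 0 with limma, 13 and 0 with DESeq2 and 22 and 0 at an unadjusted p under 0.05. Of the 17, 8 were high in wing nub alone. Among them the fibrillarin gene Fib stood at 76.0 and 73.7 CPM in wing nub and 32.7 to 56.1 CPM in the other 6 libraries (-0.89 ± 0.15, adjusted p = 0.00382). That list had 8 called lower without haltere tsh replicate 1, 10 without either haltere nub library and 11 without either wing nub library.

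**Figure D4:**
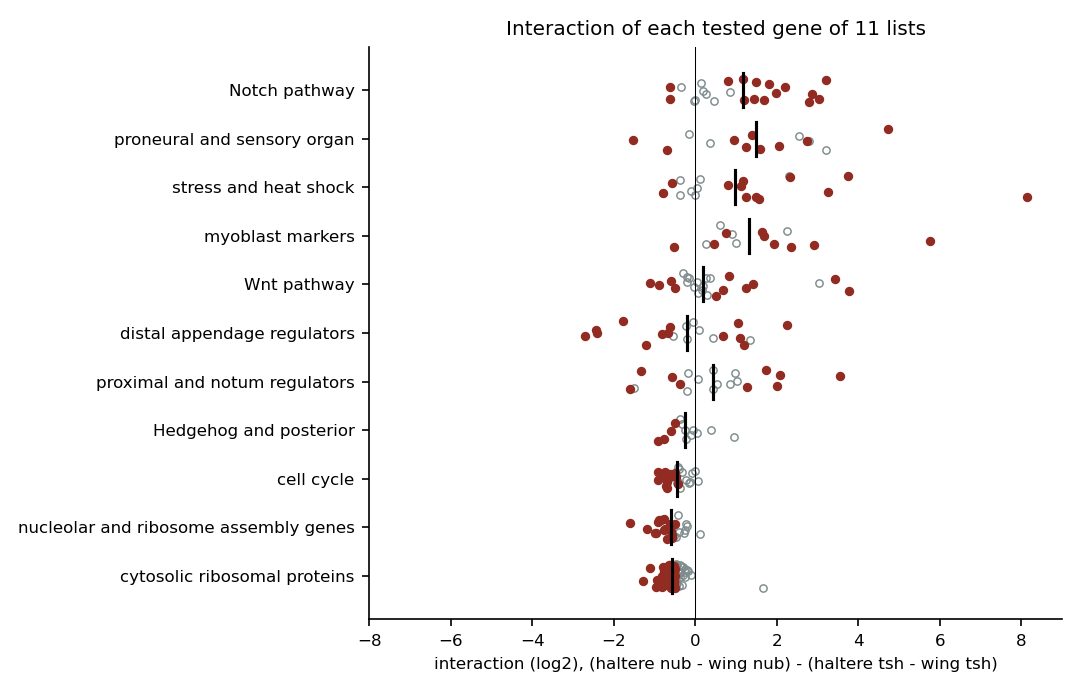
Interaction log2 fold change (horizontal axis) of each tested gene of 11 lists, filled where called and open where not, with the list median as a bar. The Notch pathway and proneural lists lie mostly right of 0, with medians of 1.17 and 1.49; the cell cycle, nucleolar and cytosolic ribosomal protein lists lie close together left of 0, with medians of -0.45, -0.60 and -0.56.

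Wing distal cells were high, alone, for 140 genes, with a median interaction of 0.65 in size. The T-box gene Doc1, on 3L at 9041375 to 9045042, stood at 102 and 121 CPM in wing nub, 2.5 and 2.17 in haltere nub, 15.9 and 13.7 in haltere tsh and 12.2 and 13.6 in wing tsh libraries (-5.78 ± 0.20, adjusted p = 1.58e-08). The homeodomain gene Dll, which patterns distal appendages, stood at 425 and 404 CPM in wing nub, 96.0 and 84.2 in haltere nub, 29.0 and 30.8 in haltere tsh and 23.8 and 26.7 in wing tsh libraries (-2.45 ± 0.14, adjusted p = 1.4e-06). Dll was thus higher in distal than proximal cells of each disc, by a larger factor in the wing. The ubiquitin ligase gene Trim9 stood at 113 and 113 CPM in wing nub and between 29.9 and 38.8 CPM in the other 6 libraries (-1.76 ± 0.13, adjusted p = 7.46e-06). The posterior selector gene en was in the same class, at 150 and 158 CPM in wing nub, 64.4 and 73.4 in haltere nub, 46.6 and 37.4 in haltere tsh and 44.4 and 54.5 in wing tsh libraries (-0.92 ± 0.18, adjusted p = 0.00723). Of 13 Hedgehog and posterior genes, 4 were called lower and 0 higher (median -0.24), and en, inv and hh were all high in wing nub alone. At an unadjusted p under 0.05 the list had 1 member higher, and adjusted calls higher numbered 0 with limma and 1 with DESeq2. Doc1, Dll, Trim9 and en were called under all 15 other settings. The call of inv ended without haltere nub replicate 1, and that of hh, which lay between -0.63 and -0.41 over all settings, without haltere nub replicate 2 or without any 1 library of haltere tsh or wing nub.

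Wing distal cells were low, alone, for 82 genes, with a median interaction of 1.61 in size. The Pax gene eyg, which patterns the notum, stood at 15.1 and 12.4 CPM in wing nub, 62.3 and 72.7 in haltere nub, 46.1 and 42.4 in haltere tsh and 108 and 103 in wing tsh libraries (3.56 ± 0.17, adjusted p = 2.32e-07). Its disc effect was 2.30 in nub cells and -1.26 (adjusted p = 6.28e-05) in tsh cells. Its neighbour and paralogue toe had wing tsh as the departing group, high at 70.1 and 65.6 CPM against 14.0 to 34.5 CPM in the other 6 libraries (2.08 ± 0.21, adjusted p = 9.41e-05). The gene twz stood at 11.4 and 11.1 CPM in wing nub and between 58.1 and 90.3 CPM in the other 6 libraries (2.34 ± 0.14, adjusted p = 1.77e-06). The receptor tyrosine kinase gene Alk stood at 1.64 and 1.75 CPM in wing nub, 16.8 and 18.8 in haltere nub, 25.0 and 22.8 in haltere tsh and 21.4 and 13.2 in wing tsh libraries (2.92 ± 0.32, adjusted p = 0.000222). DIP-epsilon, of an immunoglobulin family of surface proteins that bind dpr proteins, stood at 0.235 and 0.564 CPM in wing nub and 4.37 to 21.4 CPM in the others (3.22 ± 0.38, adjusted p = 0.00033). The adjacent X-linked genes CG4766 and lncRNA:CR44498 were both in this class, at 2.16 ± 0.16 and 2.24 ± 0.20. All of these were called under all 15 other settings.

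**Figure D5:**
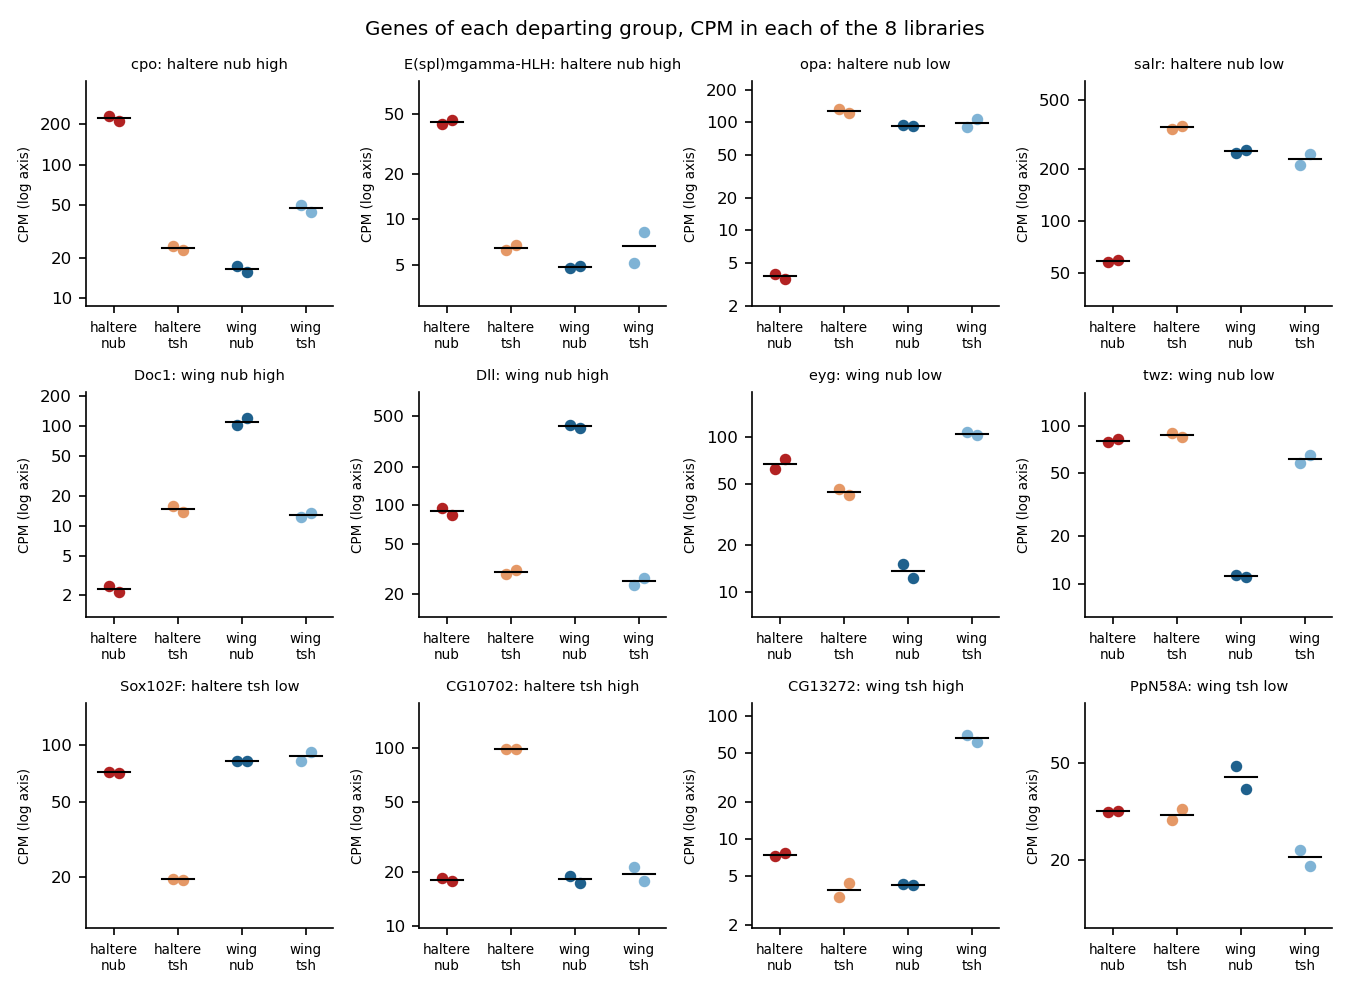
CPM (log axis) in each of the 8 libraries for 12 interaction genes, with points for libraries and a bar for the mean of each group of 2. In each panel the group named in the title lies apart from the other 3, from opa with 3.95 and 3.58 CPM in haltere nub to CG13272 with 69.7 and 61.1 CPM in wing tsh.

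Haltere proximal cells departed for few genes. They were low, alone, for 37. The Sox transcription factor gene Sox102F stood at 19.7 and 19.4 CPM in haltere tsh and between 71.4 and 91.8 CPM in the other 6 libraries (1.96 ± 0.13, adjusted p = 3.59e-06), so that its disc effect was -2.15 in tsh cells and -0.20 in nub cells. The adhesion protein gene kirre, the paralogue of rst, stood at 22.2 and 21.2 CPM in haltere tsh, 113 and 109 in haltere nub, 69.6 and 64.2 in wing nub and 54.9 and 44.6 in wing tsh libraries (1.93 ± 0.16, adjusted p = 1.55e-05). Haltere tsh was therefore lowest for both paralogues. The secreted Notch modulator gene sca (1.45 ± 0.12, adjusted p = 1.96e-05) and kek1, whose product inhibits the EGF receptor (1.03 ± 0.11, adjusted p = 0.000201), had the same departing group. The zona pellucida domain gene m stood at 0.593 and 1.03 CPM in haltere tsh and 10.8 to 16.8 CPM in the others (3.37 ± 0.30, adjusted p = 3.35e-05).

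Haltere proximal cells were high, alone, for 35 genes, with a median interaction of 0.59 in size. CG10702 stood at 98.8 and 98.8 CPM in haltere tsh and between 17.4 and 21.5 CPM in the other 6 libraries (-2.34 ± 0.16, adjusted p = 4.38e-06). Its disc effect in nub cells was -0.01 and in tsh cells 2.33. The glycosyltransferase gene Pgant1 stood at 130 and 124 CPM in haltere tsh, 72.1 and 73.7 in haltere nub, 96.3 and 89.6 in wing nub and 84.4 and 82.5 in wing tsh libraries (-0.96 ± 0.11, adjusted p = 0.000333). The heterochromatin protein gene rhi, known from the germline, stood at 25.9 and 25.4 CPM in haltere tsh and 12.7 to 16.9 CPM in the others (-1.12 ± 0.19, adjusted p = 0.00292). These 3 were among the 4 of the 35 genes called under all 15 other settings. The number kept fell to 6 without haltere nub replicate 2, 7 without haltere nub or haltere tsh replicate 1 and 8 without wing nub replicate 1. It was 21, 18 and 17 without haltere tsh replicate 2, wing nub replicate 2 and wing tsh replicate 1.

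Wing proximal cells were high, alone, for 35 genes, with the largest median interaction of the single groups, 2.11 in size. CG13272 stood at 69.7 and 61.1 CPM in wing tsh and between 3.36 and 7.69 CPM in the other 6 libraries (4.89 ± 0.21, adjusted p = 1.39e-07). The neurotrophin gene NT1 stood at 37.2 and 39.6 CPM in wing tsh, 8.26 and 7.76 in haltere nub, 12 and 11.9 in haltere tsh and 4.58 and 3.38 in wing nub libraries (2.69 ± 0.21, adjusted p = 1.29e-05). Con, which codes for a leucine-rich repeat adhesion protein of motor axons and muscle, stood at 38.6 and 37.9 CPM in wing tsh and at 1.84 CPM or less in every other library (4.59 ± 0.40, adjusted p = 2.92e-05). The FGF ligand gene ths stood at 419 and 381 CPM in wing tsh, 55.0 and 51.5 in haltere nub, 49.8 and 28.2 in haltere tsh and 9.86 and 10.4 in wing nub libraries (5.76 ± 0.34, adjusted p = 5.91e-05). CG4607 had 165 and 192 counts in wing tsh and 0 and 0 in haltere tsh, so it was called (adjusted p = 0.0039) and is given with no fold. All 5 genes were called under all 15 other settings. That their wing tsh replicates lay within 2-fold of each other was a condition of the rule.

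Markers of myoblasts, which lie under the proximal epithelium, did not follow a single group. Of 14 tested, 8 were called higher and 1 lower, with a median of 1.32. Of the 8, ths, SPARC, zfh1 and sns were high in wing tsh alone, rst and bib were high in haltere nub alone, kirre was low in haltere tsh and Alk low in wing nub. For ths, rst and kirre, bulk RNA cannot tell myoblast from epithelial transcripts. The defining gene twi stood at 12 and 8.55 CPM in wing tsh, 3.62 and 3.43 in haltere tsh and 1.47 CPM or less in the nub libraries. The FGF receptor gene htl stood at 16.3 and 12.7 CPM in wing tsh, 3.95 and 4.4 in haltere tsh and 2.29 CPM or less in the nub libraries. The muscle factor gene Mef2 stood between 92 and 115 CPM in all 8 libraries. The summed level of the list was 1260 and 1218 CPM in wing tsh, 659.2 and 611.8 in haltere tsh, 1499 and 1474 in haltere nub and 830.8 and 785.3 in wing nub libraries. Haltere nub thus had the highest sum, which includes rst and does not follow twi and htl. Like those 2 genes, zfh1 was highest in wing tsh, at 27.6 and 31.1 CPM against 2.27 and 1.52 in haltere nub libraries. None of the defining markers was at 0, and the part of myoblast RNA in the wing tsh genes was not tested. Between 6 and 9 of the list were called higher with 1 library left out.

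Markers of other cell types differed in where they stood highest. Fat body markers summed to 63.67 and 23.41 CPM in wing tsh and to 8.505 CPM or less elsewhere, with Apoltp called at 33.2 and 16.9 CPM (4.41 ± 0.63, adjusted p = 0.00253). The fat body storage protein gene Lsp2 was at 0 in wing tsh replicate 2, haltere tsh and wing nub libraries. Hemocyte markers summed to 287.5 and 294.6 CPM in wing tsh, 274.9 and 265.8 in haltere tsh and 93.64 to 103 CPM in the nub libraries. The hemocyte marker Hml stood at 10.5 and 0 CPM in wing tsh replicate 1 and 2, and 0 of 6 hemocyte markers were called with edgeR, limma or DESeq2 (1 higher and 1 lower at an unadjusted p under 0.05). Of 13 neuron and glia markers, 1 was called higher and 1 lower, beside 7.32% and 8.1% of all genes tested. The list summed to 383.8 to 490.2 CPM over all libraries. The neuronal gene elav stood between 139 and 199 CPM, highest in haltere nub, and the glial gene repo at 2.76 and 0.187 CPM in wing tsh. Of 10 genes listed as tracheal markers, 4 were called lower, and the list median lay between -0.3 and 0.07 over all settings. Among the 4 were trh and the ligand gene bnl, whose product guides tracheae, so the count does not measure tracheal cells. The tracheal factor gene trh stood at 199 and 194 CPM in wing nub, 62.7 and 68.8 in haltere nub, 22.7 and 30.9 in haltere tsh and 19.5 and 15.2 in wing tsh libraries. The tracheal gene btl had another order, with 16.1 and 18.4 CPM in haltere tsh and 11 and 11.1 in wing tsh libraries. In haltere nub btl stood at 2.97 and 3.36 CPM and in wing nub at 0.704 and 1.64 CPM. Of 74 odorant binding and chemoreceptor genes, 15 were called higher and 0 lower, and 26 higher and 0 lower at an unadjusted p under 0.05. Of the 15, 10 met the limits on CPM and wing tsh agreement, and the count was 10 with limma, 15 with DESeq2 and 5 to 27 with 1 library left out. The part of these cell types in the wing tsh genes was not tested.

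Wing proximal cells were low, alone, for 18 genes. The phosphatase gene PpN58A stood at 22.1 and 19.0 CPM in wing tsh, 31.6 and 31.9 in haltere nub, 29.2 and 32.3 in haltere tsh and 48.5 and 39.1 in wing nub libraries (-1.04 ± 0.18, adjusted p = 0.00365). The microtubule protein gene mei-38 stood at 10.7 and 10.4 CPM in wing tsh and 13.3 to 16.8 CPM in the others (-0.86 ± 0.18, adjusted p = 0.0098). These were the 2 genes of the 18 called under all 15 other settings. Leaving out a nub library or a haltere tsh library left 2 to 8 of the 18, the fewest (2) without wing nub replicate 1, and leaving out wing tsh replicate 1 left 8.

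Among the 491 genes with no single departing group and opposite disc effects, the lead members changed sign between domains by test. For others the opposite sign is that of the estimates alone. The gene fz2 had a disc effect of -1.03 (adjusted p = 2.76e-05) in nub cells and of 0.07 (adjusted p = 0.736) in tsh cells. Doc2, next to Doc1 and Doc3 on 3L, stood at 1.13 and 0.987 CPM in haltere nub, 14.3 and 13.2 in haltere tsh, 73.5 and 76.7 in wing nub and 7.8 and 6.56 in wing tsh libraries. In distal cells it was lower in haltere, by -6.15 (adjusted p = 5.54e-10), and in proximal cells higher, by 0.94 (adjusted p = 0.00219), giving an interaction of -7.08 ± 0.19 (adjusted p = 6.06e-09). Doc3 did the same, with 1.7 and 1.88 CPM in haltere nub, 17.8 and 17.0 in haltere tsh, 32.6 and 37.3 in wing nub and 7.18 and 5.49 in wing tsh libraries (-5.74 ± 0.22, adjusted p = 5.56e-08). Of the 3 Doc genes, the proximal effect was called for Doc2 and Doc3, and for Doc1 it was 0.20 (adjusted p = 0.493).

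The chitinase gene Cht5 stood at 23.5 and 22.2 CPM in haltere nub, 245 and 222 in haltere tsh, 78.5 and 79.8 in wing nub and 55.7 and 58.2 in wing tsh libraries (-3.83 ± 0.12, adjusted p = 9.29e-09). Haltere cells held both its extremes, and the wing groups lay between them. The peptidase gene Nep1 had the same order at the ends, with 17.1 and 18.7 CPM in haltere nub and 77.7 and 72 in haltere tsh, against 66.0 and 64.7 in wing nub and 32.4 and 28.0 in wing tsh libraries (-3.18 ± 0.15, adjusted p = 2.13e-07). Of 20 chitin and cuticle enzyme genes, 5 were called lower and 1 higher (median 0.04), and 3 were called lower without haltere nub replicate 2 or haltere tsh replicate 1.

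In the other direction, the adhesion gene CadN stood at 122 and 124 CPM in haltere nub, 107 and 113 in haltere tsh, 62.3 and 67.9 in wing nub and 195 and 197 in wing tsh libraries (1.75 ± 0.12, adjusted p = 3.77e-06). Haltere cells differed little between domains, while both wing tsh libraries lay above both wing nub libraries. The gene frm stood at 1549 and 1367 CPM in haltere nub, 571 and 464 in haltere tsh, 429 and 457 in wing nub and 2106 and 2925 in wing tsh libraries (4.00 ± 0.23, adjusted p = 4.38e-06), so that the domain order reversed between discs. Phk-3 stood at 50.3 and 49.3 CPM in haltere nub, 290 and 266 in haltere tsh, 23.8 and 22.1 in wing nub and 497 and 572 in wing tsh libraries (2.06 ± 0.14, adjusted p = 3.82e-06). The transmembrane gene kon, known from muscle attachment, was 2.26 ± 0.15 (adjusted p = 4.93e-06).

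Wnt pathway genes were called in both directions. The ligand gene Wnt4 stood at 339 and 335 CPM in haltere nub, 2.9 and 4.57 in haltere tsh, 62.0 and 60.6 in wing nub and 11.2 and 7.49 in wing tsh libraries (3.77 ± 0.26, adjusted p = 1.29e-05). The ligand gene wg stood at 676 and 782 CPM in haltere nub, 78.7 and 97.9 in haltere tsh, 340 and 288 in wing nub and 96.2 and 108 in wing tsh libraries (1.42 ± 0.18, adjusted p = 0.000658), and Wnt6 was 0.83 ± 0.13 (adjusted p = 0.00185). Other ligand genes had another order: Wnt2 was low in haltere tsh alone, with a disc effect of -2.30 in nub and -3.55 in tsh cells (interaction 1.25, adjusted p = 0.00897), and Wnt10 was high in wing tsh alone, at 6.57 and 4.43 CPM, a call that ended under the replicate block and without any nub library or haltere tsh replicate 1. The receptor gene fz2 was called lower, at 547 and 527 CPM in haltere nub, 2434 and 2425 in haltere tsh, 1089 and 1096 in wing nub and 2120 and 2502 in wing tsh libraries (-1.10 ± 0.14, adjusted p = 0.000446). The co-receptor gene arr was called lower (-0.49, adjusted p = 0.0288) and the receptor gene fz higher (0.50, adjusted p = 0.0233). These calls ended without either haltere nub or haltere tsh library or wing nub replicate 1, and that of fz also with no filter or the gene span trend removed. The feedback hydrolase gene Notum was 0.67 ± 0.12 (adjusted p = 0.00408). Of 24 Wnt pathway genes, 7 were called higher and 4 lower (median 0.19), 5 higher and 1 lower without haltere nub replicate 1 or 2, haltere tsh replicate 1 or wing nub replicate 1.

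For 80 genes with no single departing group the estimated disc effect had the same sign in both domains. The sign is that of the estimate: sog, for one, had a disc effect of 1.49 (adjusted p = 1.42e-06) in nub cells and of 0.17 (adjusted p = 0.354) in tsh cells. Ubx, on 3R at 16656623 to 16734426, stood at 2738 and 2753 CPM in haltere nub, 769 and 818 in haltere tsh, 2.05 and 6.94 in wing nub and 37.0 and 37.1 in wing tsh libraries. The domain order was reversed, with distal above proximal in haltere and below it in wing, and the interaction was 4.82 ± 0.46 (adjusted p = 0.00128). Of 7 Hox genes tested it was the sole one called, against 2 with RLE scaling or thinning, 3 with DESeq2 or no filter, 2 without haltere tsh or wing tsh replicate 1 and 5 without wing tsh replicate 2. Antp was 0.74 ± 0.22 (adjusted p = 0.0528) and was called in 6 of the 15 other settings, and the proximal gene tsh was 0.52 ± 0.26 (adjusted p = 0.19). The transcription factor gene Glut4EF stood at 452 and 500 CPM in haltere nub, 209 and 213 in haltere tsh, 58.7 and 62.0 in wing nub and 90.9 and 102 in wing tsh libraries (1.84 ± 0.13, adjusted p = 5.52e-06). The BMP antagonist gene sog had 709 and 650 CPM in haltere nub, 406 and 416 in haltere tsh, 241 and 241 in wing nub and 336 and 393 in wing tsh libraries (1.32 ± 0.13, adjusted p = 9.55e-05). The leg and eye gene dac went down, at 2.6 and 2.14 CPM in haltere nub, 55.1 and 57.4 in haltere tsh, 20.0 and 14.3 in wing nub and 103 and 114 in wing tsh libraries (-1.90 ± 0.21, adjusted p = 0.000207).

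For the pouch gene rn the disc effect was proximal. Of this zinc finger gene, haltere nub libraries held 1077 and 1160 CPM and wing nub libraries 1176 and 1139, while the haltere tsh libraries held 4.81 and 7.71 CPM and the wing tsh libraries 33.4 and 28.9. Its interaction of 2.25 ± 0.21 (adjusted p = 7.53e-05) was thus a proximal disc effect of -2.30, at levels far under the distal ones, while the distal disc effect was -0.05. The gene nub had an interaction of 1.21 ± 0.13 (adjusted p = 0.000158), with disc effects of -0.64 (adjusted p = 0.000232) in nub and -1.85 (adjusted p = 1.46e-06) in tsh cells. Other distal genes had other departing groups, among them vg (wing nub high) and the spalt genes (haltere nub low). A departing group cannot show whether distal cells lay within the wing tsh sort, and their part was not tested. Of 20 distal appendage regulators, 5 were called higher and 8 lower (median -0.21), and of 19 proximal and notum regulators 5 higher and 4 lower (median 0.44). Higher counts of the distal list were 3 without either haltere nub library, haltere tsh replicate 1 or wing nub replicate 1, and lower counts of the proximal list were 2 without haltere nub replicate 2.

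The other lists held fewer called members. Over all genes tested, the shares called were 7.32% higher and 8.1% lower, and list counts near these shares set no list apart. Of 17 BMP pathway genes 3 were called higher and 1 lower, of 16 EGFR pathway genes 4 and 2, of 11 JAK/STAT genes 2 and 1, and of 15 Fat and Hippo genes 0 and 3 with edgeR or 1 and 3 with DESeq2. With the gene span trend removed the BMP genes were 1 higher and 2 lower and the EGFR genes 2 and 4. JAK/STAT genes were 0 and 0 without haltere tsh or wing nub replicate 1, with 2 higher and 2 lower at an unadjusted p under 0.05 on all libraries. With 1 library left out, 1 to 5 BMP genes were higher, and 0 to 4 EGFR and 1 to 6 Fat and Hippo genes were lower. Of 13 hinge regulators 5 were higher and 3 lower, the latter the Doc genes, and of 11 leg and ventral axis regulators 2 and 2. Of 19 ecdysone response genes 3 were higher and 1 lower, with ImpE2 at 1.03 ± 0.20 (adjusted p = 0.00638). Among cuticle and surface families, 2 Cpr genes higher and 2 lower met the limits on CPM and wing tsh agreement. So did 1 Tweedle, 1 dpr and 1 DIP gene, all higher. Without wing tsh replicate 1 the median fell from 3.25 to 0.10 for dpr and from 3.18 to 1.47 for DIP genes. Before those limits, 4 of 34 Cpr genes were called higher and 2 lower, and 3 of 11 Tweedle, 3 of 12 dpr and 2 of 8 DIP genes higher. Without wing tsh replicate 2 these were 12 Cpr, 5 Tweedle, 10 dpr and 6 DIP genes, and without haltere tsh replicate 1 or wing nub replicate 1 they were 1 of each. Muscle and tendon genes numbered 2 to 8 higher, ecdysone genes 1 to 6 and hinge regulators 2 to 7 with 1 library left out. Of 12 muscle and tendon genes 3 were higher and 1 lower, and of 4 sex and dosage compensation genes 1 was higher, the sex determination gene dsx at 0.68 ± 0.16 (adjusted p = 0.0149), a call that ended when the gene span trend was removed and without haltere nub replicate 2 or haltere tsh replicate 1, with values between 0.39 and 0.82 over all settings.

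Interaction genes were spread evenly over the chromosomes, at 12.9% to 13.8% of the tested genes of each arm. Of 9837 protein-coding genes 14.4% were interaction genes, of 625 lncRNA genes 6.24% and of 211 snoRNA genes 7.58%, the last with 2 higher and 14 lower. Genes known by number only made up 441 of the 1502. Median gene span was 6.64 kb for the higher and 2.74 kb for the lower interaction genes, against 2.43 kb for all genes tested. It was 20.7 kb for haltere tsh low and 2.45 kb for haltere nub low. Removing each library's trend over gene span left 1128 of the 1502.

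Higher genes often lay beside one another. A chromosomal neighbour that was also a higher interaction gene was found for 31.4% of the higher genes and 9.43% of tested genes that were not interaction genes, and a lower neighbour for 23.7% of the lower genes against 15%. Pairs of adjacent genes in the same class included E(spl)mdelta-HLH with E(spl)mgamma-HLH and ac with sc for haltere nub high, the serpin genes Spn43Ab and Spn43Ad with nec for wing nub high, and Wnt10 with ninaC for wing tsh high. Overlapping pairs, such as Dscam1 with asRNA:CR45129, cannot be told apart without strand in the counts.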

How the data were processed

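RNA was measured in 8 libraries of sorted disc cells, grouped by their titles. The authors deposited a file of raw counts for each library, over 17807 FlyBase IDs, of which 17710 matched a symbol of the reference table and 97, with 0.62% to 0.71% of a library's counts, did not. Per the submitters' processing notes, bcl2fastq, HISAT2, Bowtie2, deepTools and dm6 were used in the series. For the counting tool, its annotation and its use of strand, the sources used here give nothing, so counts of overlapping genes and near-identical copies are uncertain. Positions are from the reference table (Release 6), the assembly also called dm6. Per the labels' protocols, TRIZOL was used to extract the RNA and a Nugen Ovation Drosophila system to make libraries.

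Counts were fitted with edgeR 4.0.16 in R 4.3.3: filterByExpr on the groups, TMM scaling and a robust quasi-likelihood fit of the 4 groups over 8 libraries with 4 residual degrees of freedom. The interaction was tested two-sided with Benjamini-Hochberg adjustment over 11198 genes. All adjusted p-values in the text come from this fit unless another tool is named. CPM values are TMM-scaled, log2 fold changes are not shrunken, and each SE comes from the F statistic. A read equalled 0.0104 to 0.0662 CPM, which bounds the precision of low levels. Alternatives were limma 3.58.1 (voom with quality weights), DESeq2 1.42.0, RLE scaling, no filter, haltere nub thinned to the depth of the others, a gene span correction, a replicate block, each library left out on the same genes, and other limits.

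Named genes were Ubx, Antp, nub and tsh, in each class the 5 with the smallest adjusted p and the 3 with the largest interaction, the 8 with the smallest adjusted p in each set with no single departing group, and list members by adjusted p. Genes named for neighbouring another, or at the edges of the rule, were chosen by position or by value. The interaction genes and 31 lists were chosen with earlier results of these data known, and the nucleolar list after values were seen. Steps were tested on simulated counts. Promoter letters were not searched.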

Additional observations from a re-analysis of the deposited data

Results flagged for a closer look

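The interaction is itself a test of whether the disc effect differs between distal and proximal cells. It was called for 1727 genes, of which 1502 met the limits on CPM and wing tsh agreement. Disc effects were called in each domain with opposite signs for 79 of them.

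Among the genes with the smallest adjusted p, the interaction (log2) was negative for Doc2 at -7.08, Doc3 at -5.74, snoRNA:Psi28S-2442b at -4.24, Cht5 at -3.83, Nep1 at -3.18 and salr at -2.71. The snoRNA stood at 9.85 and 9.99 CPM in haltere nub, 96.6 and 125 in haltere tsh, 77.5 and 83.2 in wing nub and 54.3 and 40.9 in wing tsh libraries. The interaction was positive for CG13272 at 4.89, cpo at 4.74, frm at 4.00, eyg at 3.56, CG17549 at 2.86, NT1 at 2.69, tinc at 2.60, rst at 2.35, CG4766 at 2.16, Phk-3 at 2.06 and CadN at 1.75. A gene ID with no symbol in the reference table had 1.76. CG17549 was low in wing nub, at 9.33 and 7.9 CPM against 37.7 to 118 CPM in the other 6 libraries.

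The lead genes of the remaining classes differed between domains as well. The interaction was 5.76 for ths, 1.93 for kirre, 1.45 for sca and 8.49 for Ccp84Ab, and it was -0.96 for Pgant1 and -1.04 for PpN58A. For Ccp84Ab the haltere tsh libraries held 0.0658 and 0.514 CPM and the wing nub libraries 0.822 and 0.508, so its size rests on few reads.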

How the results depend on the processing

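With 1 library left out, 695 to 3400 genes were called and 666 to 2144 met the limits, most without wing tsh replicate 2, testing the genes of the fit on all libraries. That gene set was chosen after seeing the data: with the filter repeated on 7 libraries, up to 14934 genes were tested, 835 to 4255 were called and 780 to 1839 kept. At an adjusted p under 0.01, 602 were called and 572 kept. Other settings stayed within 1.5 times: 1327 to 1859 called and 1220 to 1543 kept under RLE scaling, no filter, thinning, the gene span correction, limma or DESeq2, and 1368 to 1601 kept under other limits of CPM or agreement. No named gene reversed; of 276 called, 142 were called under all 15 settings and 134 lost the call in at least 1, as did all but 505 (33.6%) of the 1502. With the replicate number as a block, 1562 genes were called and 1428 kept, 1352 of them shared. Replicate differences correlated at -0.324 between wing nub and wing tsh, and between -0.0932 and 0.107 for the other pairs of groups. The labels do not say what the replicate numbers stand for. Structure shared across numbers would not be removed by such a block and was not tested. Without wing tsh replicate 1, called counts moved from 2 to 1 for DIP, 3 to 5 for Fat and Hippo, 1 to 2 for Hox, 0 to 1 for hemocyte and 5 to 3 for mitochondrial ribosomal protein genes. The causes were not tested. A pseudocount of 1 moved no class by more than 4 genes. Promoter letters were not searched. Low genes in wing tsh replicate 1 limit what can be said under 5 CPM.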
